A study of Mus musculus with 12 samples.

Results

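The skin response to bleomycin was compared between Thy-1–KO and WT mice as an interaction, which is the bleomycin minus PBS difference in KO mice less the same difference in WT mice. All 12 of the 12 mice of the series entered the comparison, with 3 mice in each of 4 groups, and all genes were examined, of which 18311 of the 55453 listed had enough counts to be tested. The groups were WT mice injected with PBS (WT PBS), WT mice injected with bleomycin (WT BLM), Thy1-knockout mice injected with PBS (KO PBS) and Thy1-knockout mice injected with bleomycin (KO BLM). All were young adult female mice on the C57/BL6 background, the controls being littermates per the study's methods, and every mouse, controls included, received subcutaneous injections into the back skin and was harvested at day 21. The deletion was carried by every cell of the animal from birth, so it was not limited to fibroblasts or to the time of treatment. The study sequenced whole skin to search for the molecular differences behind the milder skin fibrosis of KO mice. A value above 0 in the interaction means that the bleomycin minus PBS difference was higher in KO than in WT mice, and a value below 0 means the opposite.

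Thy-1 (CD90) is a glycoprotein held in the cell membrane by a lipid anchor on fibroblasts, T cells and neurons, where it binds integrins. Bleomycin breaks DNA strands, and repeated injection into the skin is a standard way to provoke inflammation followed by collagen deposition. Mouse back skin also passes through hair cycles, in which follicles grow down into the dermal fat and build a pigmented shaft, then regress and rest. During growth the skin holds many dividing follicle cells and a thick fat layer, so genes for hair keratins, pigment and cell division have high levels then and low levels in rest.

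Reads on genes totalled 26473700 to 38890450 per mouse. Levels are given as CPM (the count scaled to a common TMM-normalized library size) and differences as log2 values from edgeR's fit with all 4 groups. The mice differed in hair cycle genes, by treatment in WT mice and within each group in KO mice. Over the 40 tested genes of the growing hair list (hair keratins, keratin-associated proteins and follicle regulators), the summed level was 57037 to 87688 CPM in WT PBS mice and 258 to 1025 CPM in WT BLM mice. It was 91948 CPM in KO PBS mouse 136 against 280.1 and 615 CPM in KO PBS mice 137 and 139, and 43531 CPM in KO BLM mouse 141 against 4135 and 6976 CPM in KO BLM mice 143 and 144. At least 1 count was found on every one of the 40 genes in 9 of the 12 mice, whereas 7 genes were at 0 in WT BLM mice 145 and 147 and 8 in KO PBS mouse 137. The high and low levels thus split the KO PBS group, and in WT mice they followed the treatment, where growing hair and PBS cannot be told apart. The part of the hair cycle in each interaction was not tested, but the main gene lists are also given without mouse 136 and with the mean level of the hair list as a covariate. With that covariate, 0 of 18311 genes passed an adjusted p of 0.05 for the interaction in edgeR. At an unadjusted p under 0.05, 641 genes lay above 0 and 666 below 0.

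**Figure D1:**
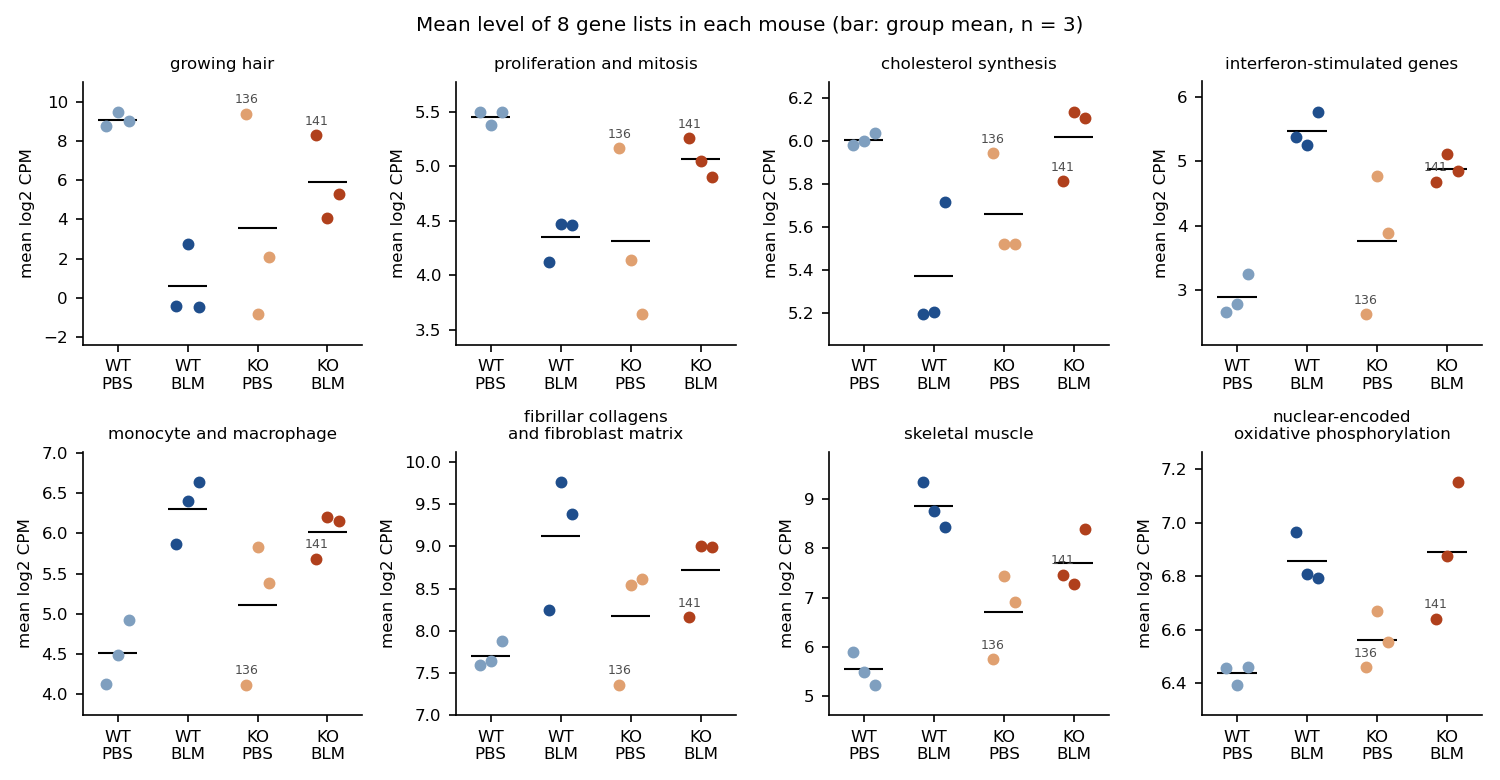
Mean log2 CPM of 8 gene lists (y axis) in each of the 12 mice by group (x axis), with a bar at the group mean of 3 mice and the numbers of mice 136 and 141 printed. Mouse 136 lies with the WT PBS mice in the hair, proliferation, interferon, macrophage and muscle panels, and the WT change from PBS to BLM is wider than the KO change in each of them.

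With all 12 mice, 0 of 18311 genes (0%) passed an adjusted p of 0.05 for the interaction in edgeR's quasi-likelihood test with Benjamini-Hochberg adjustment, and the smallest adjusted p was 0.0604. At an unadjusted p under 0.05, 2483 genes (13.6%) lay above 0 and 3204 (17.5%) below 0. At any p, 8633 genes lay above 0 and 9678 below 0. DESeq2 on the same counts called 3279 of 17716 genes, 1401 above 0 (7.91%) and 1878 below 0 (10.6%), and 3271 of these were among the genes at an unadjusted p under 0.05 in edgeR. Without mouse 136, edgeR called 7470 of 18739 genes, 3821 above 0 (20.4%) and 3649 below 0 (19.5%), and 3206 of the DESeq2 calls were among them. No other single mouse had such an effect, since leaving out each of the other 11 in turn gave 0 to 5 calls. Single interactions below are therefore given as values with their unadjusted and adjusted p, and none passed the test with all 12 mice.

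**Figure D2:**
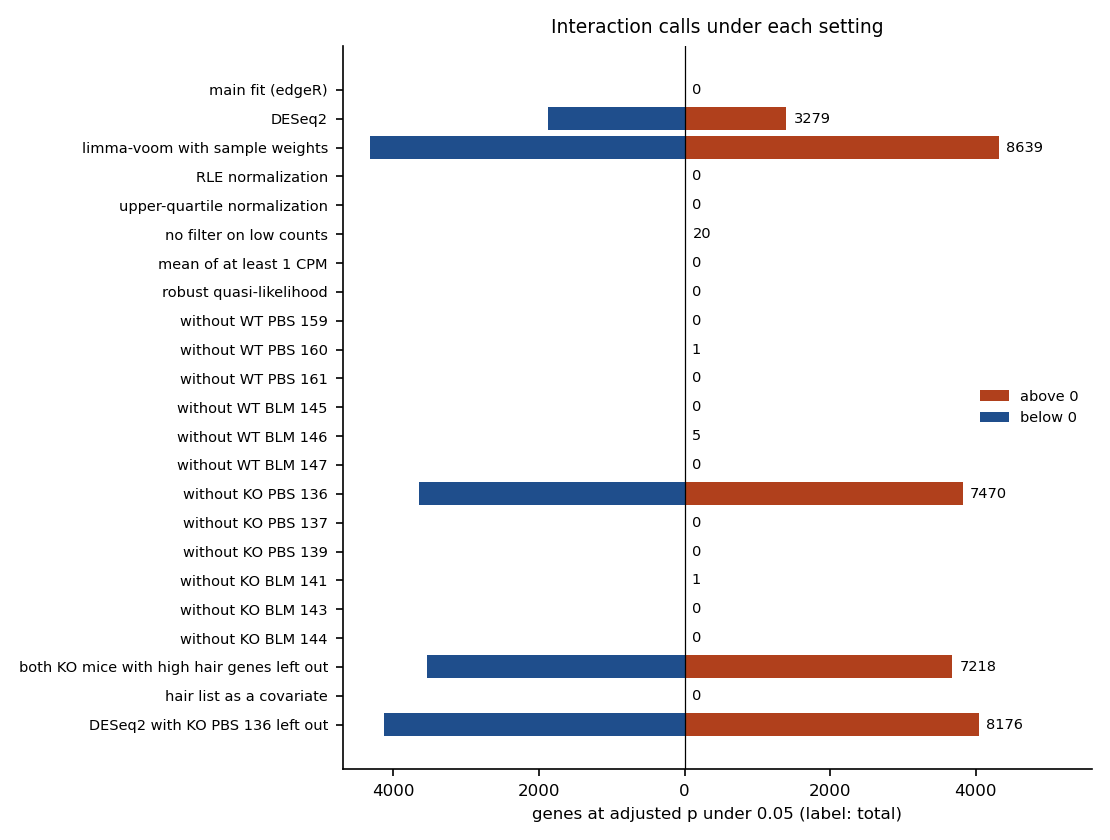
Number of genes with an interaction at an adjusted p under 0.05 (x axis, below 0 to the left and above 0 to the right, with the total printed) under each setting of the analysis (y axis). The count is 0 in edgeR with all 12 mice, 3279 in DESeq2, 8639 in limma-voom with weights for each mouse and 7470 in edgeR without KO PBS mouse 136.

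The arms of the interaction differed in size. In WT mice, 3633 genes (19.8%) were higher and 2589 (14.1%) lower with bleomycin than with PBS. The median absolute log2 change was 0.51 over all genes tested. This WT difference cannot be told apart from that in growing hair, and 8 genes passed with the hair covariate. Here and below, rose and fell mean higher and lower with bleomycin than with PBS, not an effect of bleomycin alone. In KO mice, 56 genes (0.306%) passed in either direction, 46 upward and 10 downward, with a median absolute log2 change of 0.31. A gene list with 0 members passing in KO mice is thus near the share of all genes. The KO change was the smaller of the pair in 12236 genes, or 66.8%, and in 60.5% without mouse 136. Between genotypes, 12 genes (0.0655%) differed under PBS and 17 (0.0928%) under bleomycin. These counts moved with single mice, and without mouse 136 they were 8565 for WT mice, 2632 for KO mice, 6870 under PBS and 1292 under bleomycin. Without mouse 141 the KO count was 1162. Across genes, which are not independent replicates, the WT and KO changes had a Pearson r of 0.41 and a Spearman rho of 0.26 with all mice, and r was -0.28 and rho -0.16 without mouse 136, so that the sign of this relation rested on 1 mouse.

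**Figure D3:**
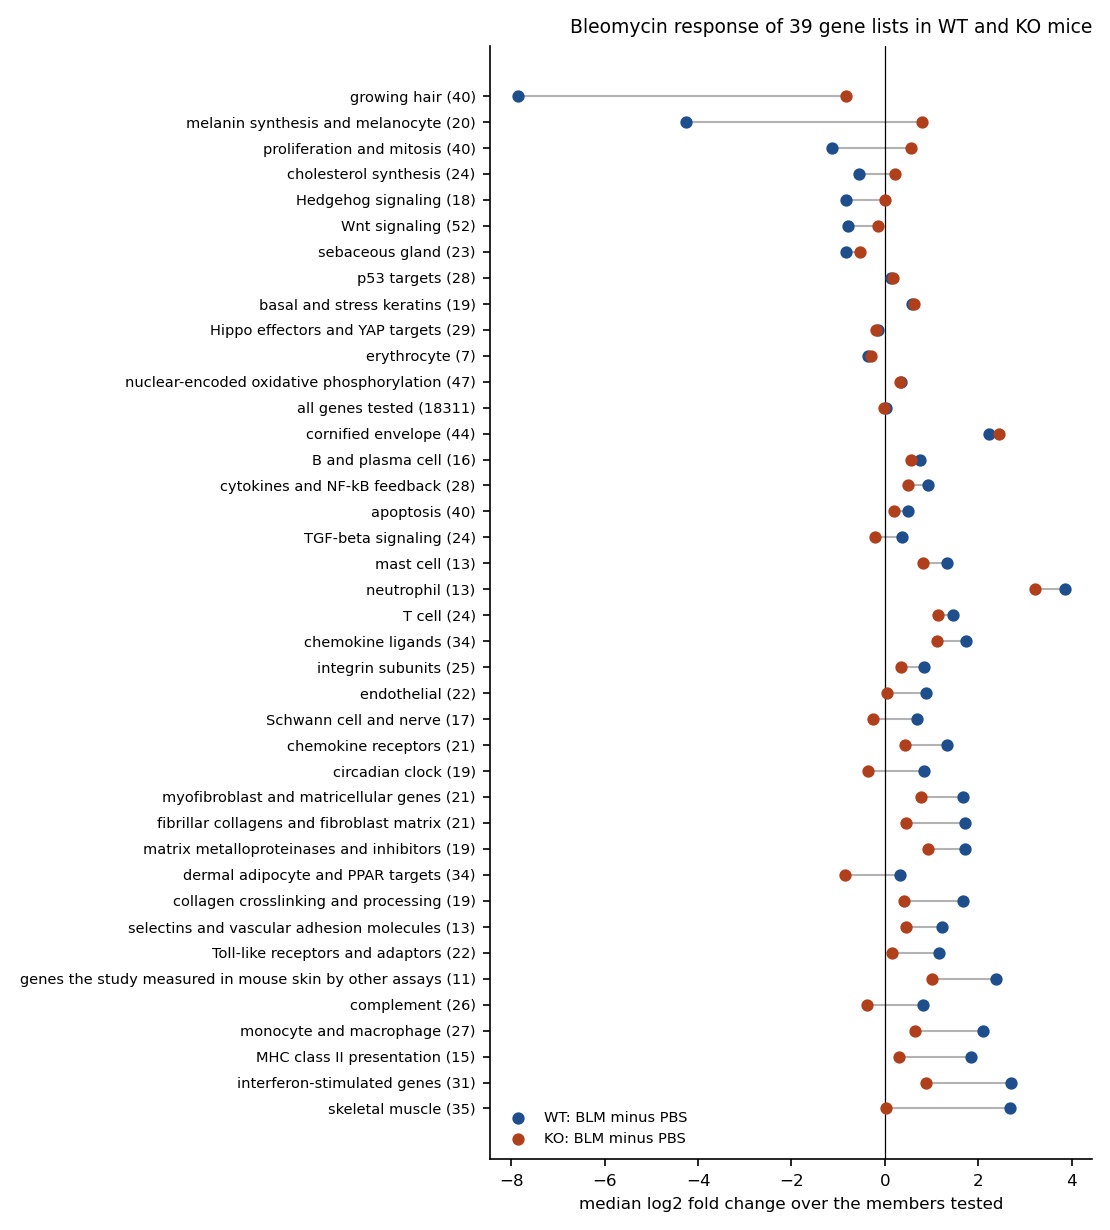
Median log2 change from PBS to bleomycin (x axis) in WT mice (blue) and KO mice (red) for each of 39 gene lists and for all genes tested (y axis, with the number of genes tested), ordered by the median interaction. Inflammatory, matrix and muscle lists have their WT point to the right of the KO point, and hair, pigment, proliferation and cholesterol lists have it to the left.

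Thy1, the targeted gene (chr9:44043384-44048579, GRCm38), had lower levels in KO than in WT mice in both treatments but was not at 0. It was counted at 104, 115 and 149.6 CPM in WT PBS mice, 231, 349 and 416 in WT BLM mice, 45.6, 96.9 and 77.4 in KO PBS mice and 84.7, 128 and 96.4 in KO BLM mice. The KO and WT ranges did not overlap in either treatment, and the PBS and BLM ranges did not overlap in WT mice but did in KO mice. Thy1 rose in WT mice by 1.43 on the log2 scale (edgeR adjusted p = 0.00971), whereas the KO change was 0.49 (edgeR adjusted p = 0.369), and the interaction was -0.94 ± 0.42 (SE), unadjusted p = 0.0485, edgeR adjusted p = 0.159. The KO minus WT difference was -0.75 under PBS (edgeR adjusted p = 0.224) and -1.69 under bleomycin (edgeR adjusted p = 0.112). Counts per gene do not show which exons the remaining reads came from.

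The study followed 10 other genes in mouse skin by PCR or staining, and with Thy1 these form a list of 11 that was chosen by the study and is not independent evidence of a direction. All 11 rose in WT mice (beside 19.8% of all genes) and 0 of 11 changed in KO mice past the threshold (beside 0.306% of all genes). Their interactions all lay below 0 with a median of -1.43, which did not move when Fasl, at the floor of 3 counts in WT PBS mice, was set to that floor, beside -0.05 over all genes, and 7 of 11 had an unadjusted p under 0.05, beside 17.5% of all genes. The 4 that did not were Col1a1, Acta2, Fasl and Fcgr4. DESeq2 called 4 of 11 and edgeR without mouse 136 called 7 of 11. With the hair list as a covariate the median was 0.12.

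Col1a1, which encodes the main chain of type I collagen, was measured at 2079, 1629 and 2205 CPM in WT PBS mice, 4070.3, 10755 and 10224 in WT BLM mice, 1559.9, 5054 and 3565 in KO PBS mice and 2905, 8835 and 8828 in KO BLM mice. In each BLM group 1 mouse, WT BLM 145 and KO BLM 141, was low and the others were near one another. The WT change was 2.08 (edgeR adjusted p = 0.0213) and the KO change 1.01 (edgeR adjusted p = 0.318), and the interaction of -1.07 ± 0.77 (SE) had an unadjusted p of 0.193 (edgeR adjusted p = 0.345). Acta2, the smooth muscle actin of myofibroblasts, stood at 165, 207 and 199 CPM in WT PBS mice, 393, 333 and 444 in WT BLM mice, 159, 186 and 167 in KO PBS mice and 255, 258 and 360.0 in KO BLM mice. BLM levels exceeded PBS levels without overlap in both genotypes, by 1.04 in WT and 0.77 in KO mice, and the interaction was -0.27 ± 0.25 (SE) (edgeR adjusted p = 0.466). Col5a2, a chain of the fibril-forming collagen V, had an interaction of -1.43 ± 0.57 (SE), unadjusted p = 0.0295, edgeR adjusted p = 0.127, and its KO BLM mice (370 to 683 CPM) overlapped the WT BLM mice (614 to 1381 CPM).

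Among the immune genes of that list, Adgre1, which encodes the macrophage marker F4/80, was at 18, 25.8 and 30.8 CPM in WT PBS mice, 76.5, 164 and 131 in WT BLM mice, 17.2, 73.8 and 69.2 in KO PBS mice and 71, 76 and 55.3 in KO BLM mice. The WT BLM mice lay above the WT PBS mice, while KO PBS mice 137 and 139 were as high as the KO BLM mice and mouse 136 was as low as the WT PBS mice. Its interaction was -1.98 ± 0.66 (SE), unadjusted p = 0.0129, edgeR adjusted p = 0.0963, and -2.39 without mouse 136 (edgeR adjusted p = 0.00182). Ifi44, an interferon-induced gene, was at 1.08, 1.28 and 1.71 CPM in WT PBS mice, 10.8, 13.3 and 14.5 in WT BLM mice, 0.931, 6.77 and 2.92 in KO PBS mice and 7.28, 7.75 and 6.36 in KO BLM mice and had an interaction of -2.23 ± 0.74 (SE), unadjusted p = 0.0121, edgeR adjusted p = 0.0945. Tlr13, an endosomal sensor of bacterial ribosomal RNA, had an interaction of -1.96 ± 0.86 (SE), unadjusted p = 0.0444, edgeR adjusted p = 0.152. Fcgr4, an activating receptor for IgG, was at 2.2, 0.724 and 3.03 CPM in WT PBS mice, 13.6, 20.8 and 24.8 in WT BLM mice, 0.632, 5.74 and 2.38 in KO PBS mice and 10.3, 15.5 and 14.2 in KO BLM mice, with no overlap between PBS and BLM in either genotype and an interaction of -1.12 ± 0.93 (SE) (edgeR adjusted p = 0.41). Fasl, the ligand of the death receptor Fas, was barely counted at 0, 0.0987 and 0.0764 CPM in WT PBS mice, 0.352, 0.359 and 0.23 in WT BLM mice, 0.0665, 0.143 and 0.0894 in KO PBS mice and 0.214, 0.682 and 0.247 in KO BLM mice, at most 3 counts in any WT PBS mouse, and no fold is given for it.

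**Figure D4:**
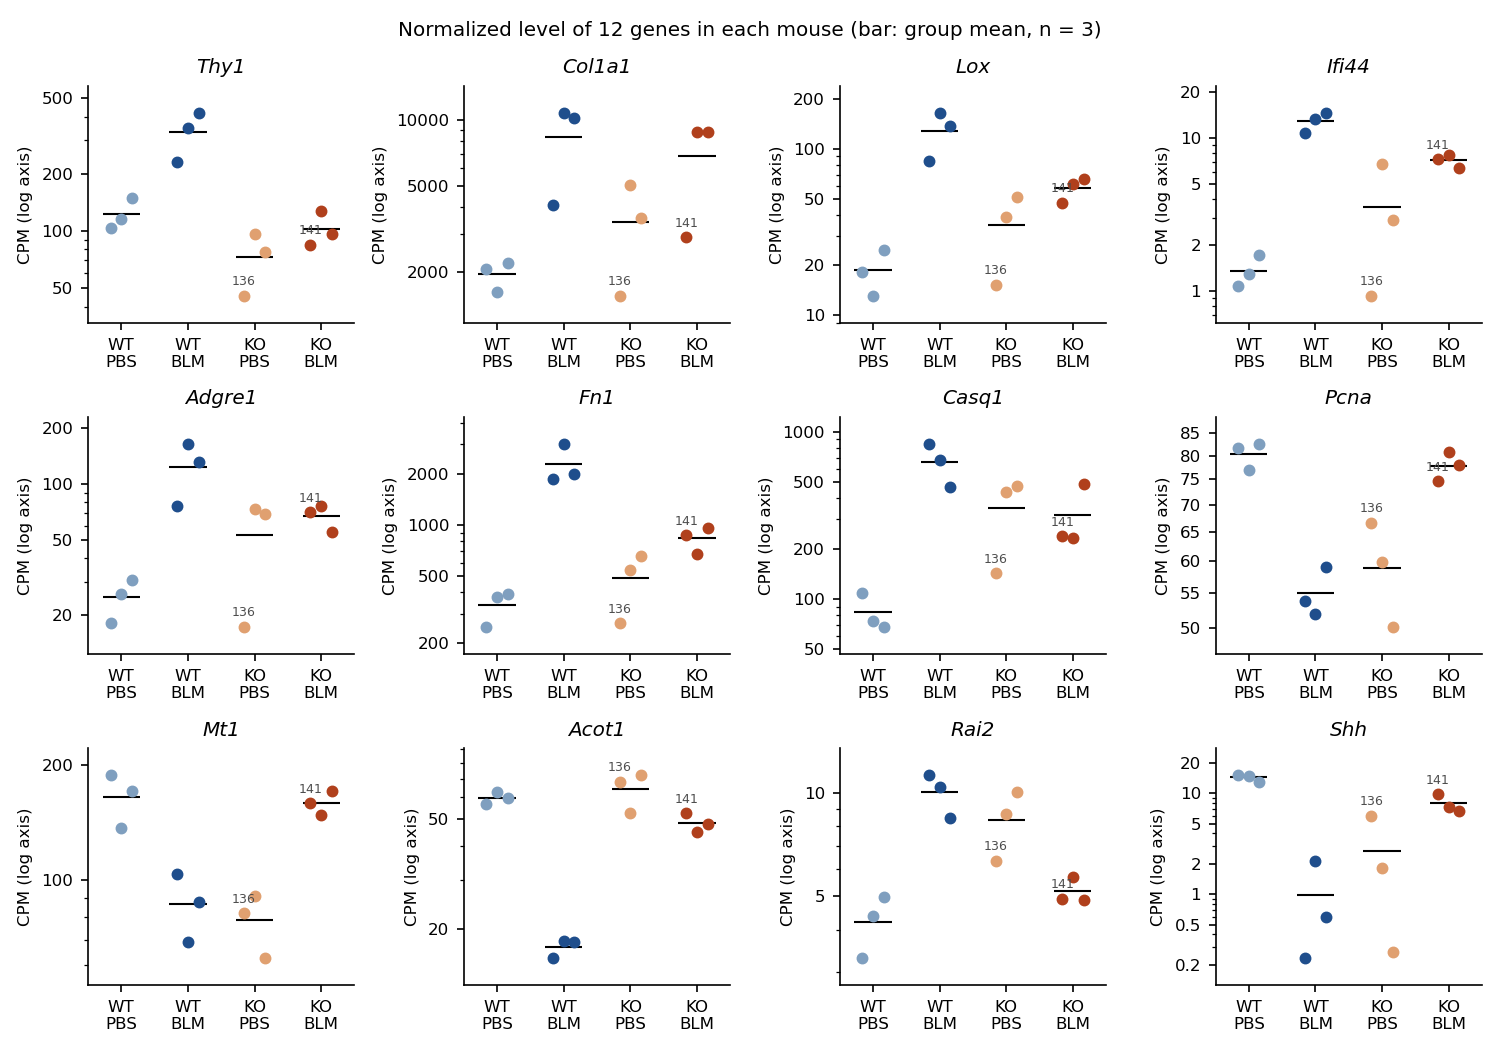
Normalized level in CPM (y axis, log scale) of 12 genes in each of the 12 mice by group (x axis), with a bar at the mean of 3 mice and the numbers of mice 136 and 141 printed. Lox, Ifi44, Adgre1, Fn1 and Casq1 have their highest group mean in WT BLM mice, Acot1 is low only in WT BLM mice among the 4 groups, and Mt1, Rai2 and Shh have BLM on opposite sides of PBS in WT and KO mice.

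Interferon-stimulated genes are switched on after a cell senses foreign nucleic acid or interferon. All 31 tested members of the list rose in WT mice (beside 19.8% of all genes), with a median change of 2.71. In KO mice 0 of 31 passed (beside 0.306% of all genes), and the median was 0.87. The mean log2 CPM over the list was 2.65, 2.78 and 3.24 in WT PBS, 5.38, 5.26 and 5.76 in WT BLM, 2.62, 4.76 and 3.88 in KO PBS and 4.68, 5.12 and 4.84 in KO BLM mice. WT BLM mice were above all others, KO BLM mice came next, KO PBS mouse 137 lay within the KO BLM range, and mouse 136 was the lowest of all 12. All 31 interactions were below 0, with a median of -1.77, and 22 of 31 (71%, beside 17.5% of all genes) had an unadjusted p under 0.05. DESeq2 called 17 and edgeR without mouse 136 called 28, with a median of -2.13. With the hair list as a covariate the sign turned, to a median of 0.30.

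The 3 members with the smallest p were sensors and effectors against viral RNA. Oas2, which makes the messenger that activates RNase L, was at 5.88, 11.3 and 7.46 CPM in WT PBS mice, 51.1, 63.1 and 60.4 in WT BLM mice, 8.28, 35.9 and 17.5 in KO PBS mice and 24.8, 27.3 and 22 in KO BLM mice. The WT BLM mice stood apart from every other mouse, and the interaction was -2.56 ± 0.61 (SE), unadjusted p = 0.00161, edgeR adjusted p = 0.0702. Ifih1 (MDA5), a sensor of long double-stranded RNA, was at 15.3, 13.9 and 20.1 CPM in WT PBS mice, 54.8, 45.6 and 51.4 in WT BLM mice, 16.1, 34.3 and 29 in KO PBS mice and 33.7, 33.5 and 30.9 in KO BLM mice, with an interaction of -1.31 ± 0.34 (SE), unadjusted p = 0.00305, edgeR adjusted p = 0.0716. Its level in KO BLM mice was within the range of KO PBS mice 137 and 139. Ddx58 (RIG-I), a sensor of short RNA ends, was at 21.9, 21.6 and 24 CPM in WT PBS mice, 60.5, 62.8 and 76.4 in WT BLM mice, 19.9, 36.7 and 32.5 in KO PBS mice and 41, 45.9 and 40.2 in KO BLM mice, with an interaction of -1.05 ± 0.28 (SE), unadjusted p = 0.00339, edgeR adjusted p = 0.0722.

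The promoters of Ifih1 and Ddx58 are shown because both hold a match to the letters of the interferon-stimulated response element. Whether the matches act was not tested. Of the 23 list members with a promoter in RefSeq (GRCm38.p6, from 250 bases before to 50 after the start), 14 held a match. The match began at base 283 in Ifih1 and base 253 in Ddx58, past the 250 bases before the start. The search, made with the results known, was for GAAA, any 2 bases and GAAA again on both strands, the paired sites of the interferon-stimulated response element. The share was 60.9% in the list and 3.89% (512 of 13166) over all tested genes with a promoter. The sequences are written 5′ to 3′ on the strand of the gene, with the match in capitals, for Ifih1 (chr2:62646206-62646505, minus strand) and Ddx58 (chr4:40239776-40240075, minus strand).
Ifih1: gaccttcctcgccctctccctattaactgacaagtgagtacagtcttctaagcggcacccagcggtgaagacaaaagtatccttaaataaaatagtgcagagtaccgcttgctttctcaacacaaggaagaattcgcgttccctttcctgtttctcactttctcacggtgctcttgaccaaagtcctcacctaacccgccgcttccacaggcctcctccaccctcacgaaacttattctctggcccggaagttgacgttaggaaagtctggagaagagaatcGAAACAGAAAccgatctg
Ddx58: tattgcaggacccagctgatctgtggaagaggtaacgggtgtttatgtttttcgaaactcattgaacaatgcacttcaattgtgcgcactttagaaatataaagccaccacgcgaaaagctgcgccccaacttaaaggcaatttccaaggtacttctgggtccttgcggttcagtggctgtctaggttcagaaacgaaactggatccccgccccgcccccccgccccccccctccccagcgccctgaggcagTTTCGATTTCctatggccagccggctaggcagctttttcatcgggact

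Toll-like receptors, which recognise microbial and damage products, and their adaptors gave interactions below 0 for 21 of 22 tested genes, with a median of -1.33. Of these, 14 of 22 (63.6%, beside 17.5% of all genes) had an unadjusted p under 0.05. In WT mice 15 of 22 rose (beside 19.8% of all genes), and in KO mice 0 of 22 passed (beside 0.306% of all genes). Tlr2, the receptor for bacterial lipoproteins, was at 4.7, 4.41 and 5.76 CPM in WT PBS mice, 34.5, 27 and 45.2 in WT BLM mice, 3.92, 10.2 and 11.4 in KO PBS mice and 15.8, 19.1 and 21.7 in KO BLM mice. BLM lay above PBS in both genotypes, with changes of 2.84 in WT and 1.15 in KO mice and an interaction of -1.7 ± 0.49 (SE), unadjusted p = 0.00553, edgeR adjusted p = 0.0778. Tlr4, the receptor for endotoxin, was at 3.48, 4.7 and 6.95 CPM in WT PBS mice, 10.5, 18.1 and 11.7 in WT BLM mice, 4.22, 13.1 and 10.6 in KO PBS mice and 7.35, 6.05 and 5.97 in KO BLM mice, and its KO BLM mice lay within the KO PBS range (interaction -1.94 ± 0.56 (SE), unadjusted p = 0.00587, edgeR adjusted p = 0.0782). Tlr9, the sensor of unmethylated DNA, had WT BLM levels of 12.8 to 24.5 CPM beside 5.62 to 8.68 CPM in KO BLM mice, and an interaction of -2.38 ± 0.69 (SE), unadjusted p = 0.00581, edgeR adjusted p = 0.0782. Without mouse 136 the list median was -1.66, and with the hair covariate it was -0.04.

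Of 27 monocyte and macrophage genes, 19 rose and 1 fell in WT mice and 1 rose in KO mice. Of all genes, 19.8% rose and 14.1% fell in WT mice and 0.306% passed in KO mice. In whole skin, fewer cells of a type and less RNA per cell cannot be told apart. The summed level of the list was 2112 to 2912 CPM in WT PBS, 4157 to 5881 in WT BLM, 2247 to 3891 in KO PBS and 3426 to 4833 in KO BLM mice. The median interaction was -1.51. At an unadjusted p under 0.05, 9 of 27 were below 0 (33.3%, beside 17.5% of all genes). Above 0 there were 2 (7.41%, beside 13.6% of all genes). Csf1r, the receptor for the growth factor of macrophages, was at 63.8, 114 and 128 CPM in WT PBS mice, 229, 324 and 370.2 in WT BLM mice, 69.4, 239.7 and 236 in KO PBS mice and 157, 189.7 and 182 in KO BLM mice and had an interaction of -1.64 ± 0.59 (SE), unadjusted p = 0.0188, edgeR adjusted p = 0.107. Cd14, a co-receptor for endotoxin, was at 4.33, 6.28 and 7.23 CPM in WT PBS mice, 29.1, 31.5 and 43.6 in WT BLM mice, 4.42, 11.2 and 11.6 in KO PBS mice and 12.7, 17.3 and 25.9 in KO BLM mice, with an interaction of -1.51 ± 0.54 (SE), unadjusted p = 0.0176, edgeR adjusted p = 0.105. The 2 genes above 0 at that p, named after their values were seen, were Cd9 (0.55) and Gpnmb (2.25), and Gpnmb is also expressed in pigment cells. DESeq2 called 1 above and 3 below 0, and edgeR without mouse 136 called 2 above and 19 below. The median with the hair covariate was 0.63, of the other sign.

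MHC class II genes, which present antigen to helper T cells, had all 15 interactions below 0, with a median of -1.52. An unadjusted p under 0.05 was found for 9 of 15 (60%, beside 17.5% of all genes). Ciita, the transcriptional activator of the whole class, was at 10.8, 13.3 and 11.2 CPM in WT PBS mice, 31.8, 54.9 and 38.9 in WT BLM mice, 8.28, 28.7 and 32.8 in KO PBS mice and 21.6, 25.6 and 14.5 in KO BLM mice. WT BLM mice 146 and 147 were the highest, KO PBS mouse 139 was just above WT BLM mouse 145, and KO PBS mice 137 and 139 were above the KO BLM mice, with an interaction of -2.01 ± 0.60 (SE), unadjusted p = 0.00729, edgeR adjusted p = 0.083. H2-DMb1, which helps load peptides, was at 20.2, 21.6 and 23.1 CPM in WT PBS mice, 70.2, 95 and 99.8 in WT BLM mice, 17.8, 57.1 and 49.5 in KO PBS mice and 49.7, 70.7 and 53 in KO BLM mice, with an interaction of -1.55 ± 0.49 (SE), unadjusted p = 0.00932, edgeR adjusted p = 0.0881. Complement genes had 24 of 26 interactions below 0, a median of -1.43 and 9 of 26 (34.6%, beside 17.5% of all genes) below 0 at an unadjusted p under 0.05. Cd59a, an inhibitor of the membrane attack complex, was at 10.9, 9.93 and 11.4 CPM in WT PBS mice, 22.9, 32 and 21.9 in WT BLM mice, 14.1, 26.3 and 25.5 in KO PBS mice and 18.8, 19.5 and 20.9 in KO BLM mice, and its interaction was -1.41 ± 0.33 (SE), unadjusted p = 0.00139, edgeR adjusted p = 0.0702. Cfb, a protease of the alternative pathway, was counted at or below 2.12 CPM in every mouse, with an interaction of -2.09 ± 0.56 (SE), unadjusted p = 0.00359, edgeR adjusted p = 0.0726. With the hair covariate the medians were 0.16 for MHC class II and -0.24 for complement.

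Chemokines are secreted signals that draw leukocytes into tissue through their receptors. Of 21 receptors, 20 lay below 0 and 7 (33.3%, beside 17.5% of all genes) were below 0 at an unadjusted p under 0.05, with a median of -1.03. Ccr2, which brings monocytes into tissue, was at 12.5, 13.9 and 26.7 CPM in WT PBS mice, 73.5, 165 and 126 in WT BLM mice, 12.1, 59.5 and 45.1 in KO PBS mice and 61.3, 61.8 and 42.1 in KO BLM mice, with an interaction of -2.28 ± 0.74 (SE), unadjusted p = 0.0107, edgeR adjusted p = 0.0907. Of 34 ligands, 1 was above and 1 below 0 at an unadjusted p under 0.05, a share under that of all genes, and the median of -0.64 became -0.41 with the 3 genes at the floor in a group set to 3 counts. Both medians turned with the hair covariate, to 0.22 for receptors and 1.07 for ligands. Ccl7, a ligand of Ccr2, was at 2.4, 1.64 and 2.73 CPM in WT PBS mice, 14.1, 16.5 and 29.2 in WT BLM mice, 1.99, 7.46 and 5.6 in KO PBS mice and 9.24, 21.2 and 16.8 in KO BLM mice, with BLM above PBS in both genotypes and an interaction of -1.49 ± 0.67 (SE), unadjusted p = 0.0496, edgeR adjusted p = 0.16. Cxcl14, made by resting keratinocytes and by hair follicles, was highest in the mice with high hair genes, at 245, 232 and 257 CPM in WT PBS mice, 40.2, 45 and 38.8 in WT BLM mice, 311, 87.2 and 121 in KO PBS mice and 196, 74.2 and 93.6 in KO BLM mice, and its interaction of 2.05 became 0.11 with the hair covariate.

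The lymphocyte and granulocyte lists held at most 2 interactions each below 0 at an unadjusted p under 0.05. Of 24 T cell genes, 21 rose in WT mice (beside 19.8% of all genes) and 0 passed in KO mice (beside 0.306% of all genes). Yet 0 of 24 interactions had an unadjusted p under 0.05, and the median of -0.60 stood beside changes of 1.45 in WT and 1.14 in KO mice. Trbc2, a constant part of the T cell receptor, was at 11.6, 9.21 and 12.3 CPM in WT PBS mice, 20.3, 11.7 and 27.2 in WT BLM mice, 9.47, 18.5 and 17 in KO PBS mice and 17.5, 30.7 and 36.2 in KO BLM mice, with an interaction of 0.07 ± 0.51 (SE) (edgeR adjusted p = 0.937) and 1.59 with the hair covariate (unadjusted p = 0.00901). Of 16 B and plasma cell genes 1 lay below 0 at an unadjusted p under 0.05 (6.25%), of 13 neutrophil genes 2 (15.4%), and of 13 mast cell genes 2 below (15.4%) and 1 above, beside 17.5% of all genes below 0. The medians of these 4 lists were all above 0 with the hair covariate. They were 1.18 for T cells, 0.21 for B and plasma cells, 0.92 for neutrophils and 0.72 for mast cells. In that fit 8 of 24 T cell genes were above 0 at an unadjusted p under 0.05, beside 641 of 18311 genes tested. Without the covariate the 4 medians were -0.60, -0.27, -0.55 and -0.52. The neutrophil median became -0.29 with the 2 genes at the floor in a group set to 3 counts. The neutrophil list had medians of 3.85 in WT and 3.23 in KO mice, the largest bleomycin changes of the immune lists in both genotypes. Of its 13 genes, 9 rose in WT (beside 19.8% of all genes) and 0 passed in KO mice (beside 0.306% of all genes). Csf3r, the receptor for the neutrophil growth factor G-CSF, was at 3.18, 3.82 and 3.36 CPM in WT PBS mice, 11.6, 21.4 and 27.5 in WT BLM mice, 2.16, 7.37 and 7.03 in KO PBS mice and 10.2, 12.8 and 13.9 in KO BLM mice, without overlap between PBS and BLM in either genotype (interaction -1.4 ± 0.59 (SE), unadjusted p = 0.0398, edgeR adjusted p = 0.144). Clec4e (Mincle), a receptor for dead cells and microbial glycolipids, was at 0.0338, 0.0329 and 0.127 CPM in WT PBS mice, 5.36, 2.02 and 8.47 in WT BLM mice, 0.0665, 0.829 and 0.179 in KO PBS mice and 1.07, 1.61 and 3.64 in KO BLM mice. Il33, an alarm cytokine released by damaged epithelium and fibroblasts, was at 9.57, 7.27 and 9.6 CPM in WT PBS mice, 51, 47.6 and 86.6 in WT BLM mice, 7.28, 28.8 and 31.5 in KO PBS mice and 24.4, 52.7 and 37.1 in KO BLM mice, and its interaction was -2.05 ± 0.68 (SE), unadjusted p = 0.0122, edgeR adjusted p = 0.0946. The list of cytokines and NF-kB feedback genes to which Il33 belongs had 19 of 28 below 0 and a median of -0.28, with 3 of 28 (10.7%) at an unadjusted p under 0.05. The median with the hair covariate was 0.43, of the other sign.

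Fibrillar collagens and fibroblast matrix genes rose in WT mice in 16 of 21 cases (beside 19.8% of all genes), and 0 of 21 passed in KO mice (beside 0.306% of all genes). The mean log2 CPM over the list was 7.59, 7.64 and 7.88 in WT PBS, 8.24, 9.76 and 9.38 in WT BLM, 7.36, 8.54 and 8.62 in KO PBS and 8.16, 9.01 and 8.99 in KO BLM mice. WT BLM mouse 145 and KO BLM mouse 141 were low for their groups, and KO PBS mice 137 and 139 exceeded all WT PBS mice. All 21 interactions were below 0, with a median of -1.12, but 4 of 21 (19%) had an unadjusted p under 0.05, which is near the 17.5% of all genes, and DESeq2 called 0. Fbn1, the core of elastic microfibrils, was at 133, 180.0 and 237 CPM in WT PBS mice, 249, 653 and 459 in WT BLM mice, 113, 289.8 and 300.4 in KO PBS mice and 217, 226 and 207 in KO BLM mice, with an interaction of -1.42 ± 0.57 (SE), unadjusted p = 0.0315, edgeR adjusted p = 0.13. Col5a3 had an interaction of -1.06 ± 0.45 (SE), unadjusted p = 0.0414, edgeR adjusted p = 0.147, with BLM above PBS in both genotypes. Without mouse 136, 9 of 21 were called below 0 with a median of -1.46, and with the hair covariate the median was -0.10.

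Genes that crosslink and process collagen had all 19 interactions below 0, a median of -1.23 and 9 of 19 (47.4%, beside 17.5% of all genes) at an unadjusted p under 0.05. Lox, the oxidase that starts the crosslinks between collagen and elastin chains, was at 18.2, 13.1 and 24.7 CPM in WT PBS mice, 84.5, 163 and 137 in WT BLM mice, 15.2, 38.7 and 51.1 in KO PBS mice and 47.3, 61.1 and 65.5 in KO BLM mice. All WT BLM mice were above all KO BLM mice, and the interaction was -2.06 ± 0.58 (SE), unadjusted p = 0.00476, edgeR adjusted p = 0.0755. Loxl3, a relative of Lox, was at 7.41, 7.8 and 6.9 CPM in WT PBS mice, 57.3, 51.6 and 73.4 in WT BLM mice, 5.68, 13.5 and 10.8 in KO PBS mice and 16.7, 21.7 and 38.2 in KO BLM mice, with the same separation and an interaction of -1.69 ± 0.48 (SE), unadjusted p = 0.00526, edgeR adjusted p = 0.0774. Adamts14, which trims procollagen, was at 17.8, 16.9 and 17.7 CPM in WT PBS mice, 82.8, 58.1 and 74.7 in WT BLM mice, 15.3, 54.8 and 43 in KO PBS mice and 27.4, 36.6 and 45.2 in KO BLM mice, with KO PBS mouse 139 in the range of the KO BLM mice and mouse 137 above it (interaction -2.09 ± 0.53 (SE), unadjusted p = 0.00243, edgeR adjusted p = 0.0712). DESeq2 called 6 of 19 and edgeR without mouse 136 called 13, and the median with the hair covariate was 0.00.

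Of 21 myofibroblast and matricellular genes, 14 rose in WT mice (beside 19.8% of all genes) and 4 in KO mice (beside 0.306% of all genes passing). At an unadjusted p under 0.05, 8 interactions were below 0 (38.1%, beside 17.5% of all genes) and 1 above 0 (4.76%, beside 13.6%), with a median of -1.11. Fn1, fibronectin, the scaffold on which collagen is laid down, was at 251, 377 and 389.7 CPM in WT PBS mice, 1864, 2994 and 1988 in WT BLM mice, 263, 541 and 652 in KO PBS mice and 869, 678 and 963 in KO BLM mice. The WT BLM mice were 1864 CPM and above and the KO BLM mice were at 963 CPM and below, with changes of 2.75 in WT (edgeR adjusted p = 0.00329) and 0.79 in KO mice (edgeR adjusted p = 0.233) and an interaction of -1.96 ± 0.48 (SE), unadjusted p = 0.002, edgeR adjusted p = 0.0702. The gene above 0 was Tagln, an actin-binding protein of smooth muscle and myofibroblasts, at 120.5, 120.1 and 138 CPM in WT PBS mice, 99, 124 and 107 in WT BLM mice, 87.2, 80.6 and 70.4 in KO PBS mice and 150.3, 133 and 148 in KO BLM mice. It rose in KO mice by 0.86 (edgeR adjusted p = 0.0341) with a change of -0.20 in WT mice (edgeR adjusted p = 0.23), and its interaction was 1.05 ± 0.18 (SE), unadjusted p = 0.000116, edgeR adjusted p = 0.0702. Acta2 and Tagln, both contractile genes, thus had interactions of -0.27 and 1.05, apart from the list median.

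Matrix metalloproteinases and their inhibitors had 18 of 19 interactions below 0 and 4 (21.1%) at an unadjusted p under 0.05, near the share of all genes. The median was -1.13, or -0.97 with the 2 genes at the floor in a group set to 3 counts, and it was 0.36 with the hair covariate, of the other sign. Mmp19, a broad matrix protease, was at 9.26, 12.7 and 14.6 CPM in WT PBS mice, 59.8, 70.4 and 78 in WT BLM mice, 8.28, 25.9 and 21 in KO PBS mice and 30.03, 35.5 and 53.2 in KO BLM mice, with an interaction of -1.4 ± 0.52 (SE), unadjusted p = 0.0214, edgeR adjusted p = 0.113. Mmp11 had the lowest value of the list, -4.04, but its KO PBS mice were at 29.8, 14.6 and 406 CPM, and the value ranged from -4.58 to -1.28 as each mouse was left out. At an unadjusted p under 0.05, 7 of 24 TGF-β signaling genes were below 0 (29.2%, beside 17.5% of all genes). Above 0 there were 2 (8.33%, beside 13.6% of all genes). The median was -0.48, and -0.37 with the hair covariate. Without mouse 136, edgeR called 10 below and 4 above 0. Tgfb2, a TGF-β ligand, was at 10.3, 11.3 and 12.8 CPM in WT PBS mice, 19.2, 21.4 and 22.7 in WT BLM mice, 14.5, 19.9 and 33.3 in KO PBS mice and 12.4, 13.3 and 15.2 in KO BLM mice. It rose in WT mice by 0.88 (edgeR adjusted p = 0.0271), its KO change was -0.72 (edgeR adjusted p = 0.171), and its interaction was -1.6 ± 0.36 (SE), unadjusted p = 0.0011, edgeR adjusted p = 0.0702. Ltbp2, a microfibril protein related to the proteins that store latent TGF-β, was at 13.1, 14.1 and 9.22 CPM in WT PBS mice, 61.7, 77.2 and 114 in WT BLM mice, 16.1, 45.1 and 61.3 in KO PBS mice and 39.7, 67.7 and 45.8 in KO BLM mice, with an interaction of -2.47 ± 0.61 (SE), unadjusted p = 0.00202, edgeR adjusted p = 0.0702. The 2 genes above 0 at an unadjusted p under 0.05, named after their values were seen, were Bambi (4.21) and Smad6 (2.46). Both act against TGF-β or BMP signals.

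Integrins are the receptors that anchor cells to matrix and to Thy-1 itself. At an unadjusted p under 0.05, 12 of 25 were below 0 (48%, beside 17.5% of all genes) and 1 above 0 (4%, beside 13.6%), with a median of -0.71. Itga7, a laminin receptor of muscle, was at 31.9, 33 and 28.6 CPM in WT PBS mice, 212, 128 and 149 in WT BLM mice, 36.7, 53.8 and 47.5 in KO PBS mice and 61.2, 68.4 and 104 in KO BLM mice, with an interaction of -1.63 ± 0.34 (SE), unadjusted p = 0.00065, edgeR adjusted p = 0.0702. Itga4, part of the leukocyte receptor VLA-4, was at 3.69, 6.71 and 7.46 CPM in WT PBS mice, 29.8, 36.6 and 29.4 in WT BLM mice, 3.59, 19.6 and 14.9 in KO PBS mice and 16, 11.3 and 10.9 in KO BLM mice, and its WT BLM mice were above every KO mouse (interaction -2.42 ± 0.69 (SE), unadjusted p = 0.00556, edgeR adjusted p = 0.0778). Vcam1, the endothelial ligand of that receptor, was at 4.73, 5.0 and 4.33 CPM in WT PBS mice, 46.7, 48.9 and 46.9 in WT BLM mice, 4.25, 10.4 and 10.4 in KO PBS mice and 19, 30.6 and 30.5 in KO BLM mice. BLM exceeded PBS in both genotypes, by 3.34 in WT mice (edgeR adjusted p = 0.00215) and 1.67 in KO mice (edgeR adjusted p = 0.0541), and the interaction was -1.67 ± 0.43 (SE), unadjusted p = 0.0027, edgeR adjusted p = 0.0715. In the list of selectins and vascular adhesion molecules, 6 of 13 (46.2%, beside 17.5% of all genes) were below 0 and 1 above 0 at an unadjusted p under 0.05. Endothelial genes had all 22 interactions below 0 and a median of -0.88, but 5 of 22 (22.7%) had an unadjusted p under 0.05, near the 17.5% of all genes. Prox1, which specifies lymphatic vessels, was the first among them at 1.86, 1.78 and 2.52 CPM in WT PBS mice, 7.56, 5.97 and 5.94 in WT BLM mice, 2.26, 4.23 and 3.99 in KO PBS mice and 3.89, 3.1 and 3.61 in KO BLM mice (interaction -1.64 ± 0.37 (SE), unadjusted p = 0.0012, edgeR adjusted p = 0.0702). The medians with the hair covariate were -0.06 for integrins, -0.20 for the adhesion molecules and -0.37 for endothelial genes.

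Skeletal muscle genes, which in back skin come from the thin panniculus muscle, gave the lowest median of the 39 lists, -2.67. Of 35 genes, 34 rose in WT mice (beside 19.8% of all genes) and 2 in KO mice (beside 0.306% of all genes passing). The summed level of the list was 8640 to 9680 CPM in WT PBS, 32081 to 64548 in WT BLM, 10871 to 44720 in KO PBS and 18131 to 34637 in KO BLM mice. By this sum, KO PBS mice 137 and 139 lay among the BLM mice and mouse 136 near the WT PBS mice. By the mean log2 CPM, mouse 137 (7.44) lay within the KO BLM range of 7.27 to 8.39. Mouse 139 (6.9) was below every BLM mouse. At an unadjusted p under 0.05, 24 of 35 (68.6%, beside 17.5% of all genes) were below 0. DESeq2 called 22 and edgeR without mouse 136 called 24, with a median of -3.08, and with the hair covariate the median was -0.63. Casq1, the calcium store of fast fibres, was at 108, 73.8 and 68.5 CPM in WT PBS mice, 841, 677 and 468 in WT BLM mice, 143, 435 and 473 in KO PBS mice and 238, 230.5 and 486 in KO BLM mice, with an interaction of -3.13 ± 0.65 (SE), unadjusted p = 0.00061, edgeR adjusted p = 0.0702. Atp2a1, the calcium pump of fast fibres, was at 1037, 905 and 998 CPM in WT PBS mice, 6272, 5847 and 3036 in WT BLM mice, 1329, 5919.5 and 4318 in KO PBS mice and 2410.0, 1896 and 2993 in KO BLM mice, with an interaction of -3.03 ± 0.68 (SE), unadjusted p = 0.00108, edgeR adjusted p = 0.0702. Actn3, an anchor of actin in fast fibres, had an interaction of -3.66 ± 0.79 (SE), unadjusted p = 0.000786, edgeR adjusted p = 0.0702. The amount of muscle in each piece of skin was not recorded in the labels.

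Genes of proliferation and mitosis lay on the other side, and all 40 interactions were above 0 with an unadjusted p under 0.05, beside 13.6% of all genes. DESeq2 called 40 of 40 and so did edgeR without mouse 136. In WT mice 34 of 40 fell (beside 14.1% of all genes), and in KO mice 0 of 40 passed (beside 0.306% of all genes). The median changes were -1.12 in WT and 0.57 in KO mice, with a median interaction of 1.81. The mean log2 CPM was 5.49, 5.37 and 5.5 in WT PBS, 4.12, 4.47 and 4.46 in WT BLM, 5.17, 4.15 and 3.64 in KO PBS and 5.26, 5.04 and 4.9 in KO BLM mice. The WT PBS mice, the KO BLM mice and mouse 136 were high, and the WT BLM mice and KO PBS mice 137 and 139 were low, without overlap between these sets. With the hair covariate the median stayed above 0 at 0.69. In that fit 7 of 40 lay above 0 at an unadjusted p under 0.05, beside 641 of 18311 genes tested. Without mouse 136 the median was 2.45.

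Pcna, the sliding clamp of DNA polymerase, was at 81.6, 77 and 82.5 CPM in WT PBS mice, 53.9, 51.9 and 59 in WT BLM mice, 66.6, 59.9 and 50.2 in KO PBS mice and 74.6, 80.7 and 77.9 in KO BLM mice. Mouse 136 was between the groups here, the KO BLM mice were above all KO PBS mice, and the interaction was 0.95 ± 0.16 (SE), unadjusted p = 0.000125, edgeR adjusted p = 0.0702. Tyms, which makes thymidylate for DNA, was at 24.7, 23 and 25.1 CPM in WT PBS mice, 12.4, 16.8 and 13.5 in WT BLM mice, 20.9, 13.5 and 12.8 in KO PBS mice and 24.9, 25.6 and 22.9 in KO BLM mice, with an interaction of 1.41 ± 0.27 (SE), unadjusted p = 0.000339, edgeR adjusted p = 0.0702. Rrm1, the large subunit of ribonucleotide reductase, was at 121, 114 and 128 CPM in WT PBS mice, 69, 75.8 and 79.5 in WT BLM mice, 95.7, 66.5 and 57.1 in KO PBS mice and 108, 104 and 95 in KO BLM mice, with an interaction of 1.18 ± 0.24 (SE), unadjusted p = 0.000517, edgeR adjusted p = 0.0702.

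Mitotic genes are known to share CCAAT boxes and a CHR element, so 2 of their promoters are shown. Through the CHR, the DREAM and MuvB complexes hold such genes silent or switch them on. Of the 34 list members with a RefSeq promoter, 26 held CCAAT (76.5%, beside 41.9% of 13166 promoters) and 17 held TTTGAA, the core of the CHR (50%, beside 15.3%), on either strand, and the letters of the 2 motifs can share at most their end bases. Cdc20 (chr4:118437294-118437593, minus strand), the activator of the anaphase ubiquitin ligase, had both, and Ccnb1 (chr13:100786437-100786736, minus strand), cyclin B1, had 2 CCAAT boxes and no match to the CHR letters. Both are written on the strand of the gene with the matches in capitals.
Cdc20: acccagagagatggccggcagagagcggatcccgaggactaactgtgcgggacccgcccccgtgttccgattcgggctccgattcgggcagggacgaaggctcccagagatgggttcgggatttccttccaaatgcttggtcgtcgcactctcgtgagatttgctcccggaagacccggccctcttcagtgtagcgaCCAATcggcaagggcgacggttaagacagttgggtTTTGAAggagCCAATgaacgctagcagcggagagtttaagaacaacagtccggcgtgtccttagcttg
Ccnb1: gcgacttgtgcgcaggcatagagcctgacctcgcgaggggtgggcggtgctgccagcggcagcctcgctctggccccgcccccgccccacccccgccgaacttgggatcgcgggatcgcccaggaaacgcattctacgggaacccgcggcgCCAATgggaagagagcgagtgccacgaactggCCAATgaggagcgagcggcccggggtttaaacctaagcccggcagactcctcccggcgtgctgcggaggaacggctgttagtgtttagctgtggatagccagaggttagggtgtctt

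The growing hair list had the largest median interaction, 6.96, from changes of -7.87 in WT and -0.83 in KO mice. All 40 members were above 0, 23 of them (57.5%, beside 13.6% of all genes) at an unadjusted p under 0.05. With all 12 mice and the 1 gene at the floor set to 3 counts, the median was 6.92. Without mouse 136 it was 14.91, with no gene set to the floor and with 8 genes at 0 in KO PBS mouse 137. Lef1, a transcription factor of the Wnt pathway in the hair matrix, was at 120.1, 123 and 114 CPM in WT PBS mice, 2.27, 8.02 and 4.1 in WT BLM mice, 93.4, 10.001 and 7.78 in KO PBS mice and 74.4, 24.5 and 19.97 in KO BLM mice. Mice 136 and 141 were the KO mice nearest to the WT PBS level, and the interaction was 4.73 ± 1.3 (SE), unadjusted p = 0.0042, edgeR adjusted p = 0.0747. Msx2, a homeobox gene of the hair matrix, had an interaction of 5.05 ± 1.43 (SE), unadjusted p = 0.00511, edgeR adjusted p = 0.077, and Hoxc13, which switches on hair keratins, one of 4.32 ± 1.27 (SE), unadjusted p = 0.00623, edgeR adjusted p = 0.0795. Of 20 melanin and melanocyte genes all were above 0 and 17 (85%, beside 13.6% of all genes) had an unadjusted p under 0.05, with a median of 5.17. With the hair covariate the median was 2.18. In that fit 12 of 20 were above 0 at an unadjusted p under 0.05, beside 641 of 18311 genes tested. Mc1r, the melanocortin receptor that sets black pigment, was at 25.5, 18.1 and 25.6 CPM in WT PBS mice, 0.587, 0.946 and 1.74 in WT BLM mice, 4.69, 0.629 and 0.477 in KO PBS mice and 11.7, 4.4 and 5.51 in KO BLM mice. Mouse 136 had less than any WT PBS mouse, and the interaction was 6.29 ± 1.15 (SE), unadjusted p = 0.000227, edgeR adjusted p = 0.0702. Slc45a2, a transporter of the pigment granule, was at 32, 25.6 and 35.8 CPM in WT PBS mice, 0.313, 0.685 and 1.21 in WT BLM mice, 8.97, 1.0 and 0.745 in KO PBS mice and 15.7, 5.4 and 5.41 in KO BLM mice, with an interaction of 6.69 ± 1.3 (SE), unadjusted p = 0.000378, edgeR adjusted p = 0.0702.

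Hedgehog and Wnt signals drive follicle growth. Of 18 Hedgehog genes, 10 were above 0 (55.6%, beside 13.6% of all genes) and 3 below 0 (16.7%, near the 17.5% of all genes) at an unadjusted p under 0.05. The ligand Shh was at 15, 15 and 13 CPM in WT PBS mice, 0.235, 2.15 and 0.591 in WT BLM mice, 5.98, 1.8 and 0.268 in KO PBS mice and 9.76, 7.35 and 6.68 in KO BLM mice. BLM lay below PBS in WT mice and above it in KO mice, without overlap in either, with an interaction of 5.4 ± 1.29 (SE), unadjusted p = 0.00165, edgeR adjusted p = 0.0702. Sufu, which holds the Gli factors in the cytoplasm, was at 59.98, 54 and 54.4 CPM in WT PBS mice, 33.2, 36.3 and 34.5 in WT BLM mice, 47, 30.3 and 36 in KO PBS mice and 43.7, 38 and 40.2 in KO BLM mice and had an interaction of 0.80 ± 0.21 (SE), unadjusted p = 0.00315, edgeR adjusted p = 0.0721, and Kif7, a scaffold of the same step in the cilium, one of 1.36 ± 0.34 (SE), unadjusted p = 0.00228, edgeR adjusted p = 0.0702. Of 52 Wnt genes, 37 lay above 0. At an unadjusted p under 0.05 there were 19 above 0 (36.5%, beside 13.6% of all genes) and 4 below 0 (7.69%, beside 17.5%). The medians of the Hedgehog and Wnt lists, 0.71 and 0.69, became 0.18 and 0.19 with the hair covariate. The ligand Wnt10b was at 56.4, 38.6 and 43.1 CPM in WT PBS mice, 6.03, 9.46 and 6.79 in WT BLM mice, 25.1, 9.74 and 11.3 in KO PBS mice and 27.8, 14.9 and 15.9 in KO BLM mice (interaction 2.98 ± 0.54 (SE), unadjusted p = 0.000205, edgeR adjusted p = 0.0702), and Rspo2, a secreted amplifier of Wnt signals, was at 3.11, 2.96 and 3.52 CPM in WT PBS mice, 0.117, 0.783 and 0.131 in WT BLM mice, 0.565, 0.457 and 0.268 in KO PBS mice and 1.78, 1.46 and 0.672 in KO BLM mice (interaction 4.78 ± 0.90 (SE), unadjusted p = 0.000282, edgeR adjusted p = 0.0702). Wif1, a secreted Wnt inhibitor, had an interaction of 2.51 ± 0.61 (SE), unadjusted p = 0.00182, edgeR adjusted p = 0.0702.

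Cholesterol synthesis genes had all 24 interactions above 0, with a median of 0.93 and 15 of 24 (62.5%, beside 13.6% of all genes) at an unadjusted p under 0.05. In WT mice 13 of 24 fell (beside 14.1% of all genes), and in KO mice 0 of 24 passed (beside 0.306% of all genes). DESeq2 called 13 and edgeR without mouse 136 called 14. With the hair covariate the median kept its sign at 0.66. In that fit 5 of 24 lay above 0 at an unadjusted p under 0.05, beside 641 of 18311 genes tested. Hmgcs1, which makes the precursor HMG-CoA, was at 286, 268 and 309 CPM in WT PBS mice, 145, 117 and 155 in WT BLM mice, 268, 203 and 194 in KO PBS mice and 239, 231 and 208 in KO BLM mice. The WT BLM mice were below every other mouse, and the interaction was 1.08 ± 0.22 (SE), unadjusted p = 0.000624, edgeR adjusted p = 0.0702. Lss, which closes the sterol rings, was at 95, 97.6 and 94.1 CPM in WT PBS mice, 30.6, 32.7 and 40.3 in WT BLM mice, 98.8, 48.1 and 47.7 in KO PBS mice and 68.7, 63.4 and 55.5 in KO BLM mice, with an interaction of 1.42 ± 0.36 (SE), unadjusted p = 0.00246, edgeR adjusted p = 0.0713. Of 16 members with a RefSeq promoter, 1 held the sterol element TCACNCCAC (6.25%, beside 1.48% of all).

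Dermal adipocyte genes and PPAR targets had 12 of 34 interactions below 0 (35.3%, beside 17.5% of all genes) and 1 above 0 at an unadjusted p under 0.05, with a median of -1.22. Car3, an abundant carbonic anhydrase of fat and muscle, was at 571, 621 and 633 CPM in WT PBS mice, 1323, 2696 and 919 in WT BLM mice, 756, 2427 and 2989 in KO PBS mice and 1109, 720.3 and 813 in KO BLM mice. Slc2a4 (GLUT4), the insulin-responsive glucose transporter, was at 25.2, 29.7 and 24.7 CPM in WT PBS mice, 104, 93.4 and 58.6 in WT BLM mice, 26.1, 99.5 and 84.7 in KO PBS mice and 46.4, 42 and 54.8 in KO BLM mice, with an interaction of -2.24 ± 0.56 (SE), unadjusted p = 0.0024, edgeR adjusted p = 0.0707, and muscle expresses it as well. The gene above 0 was Acot1. Of 19 circadian clock genes, 15 lay below 0, and 12 (63.2%, beside 17.5% of all genes) were below 0 at an unadjusted p under 0.05, with a median of -1.04. Nr1d1 (REV-ERBα), a repressor of the clock, was at 87.6, 92.9 and 91.4 CPM in WT PBS mice, 182, 155 and 166 in WT BLM mice, 116, 264 and 263 in KO PBS mice and 110.1, 114 and 142 in KO BLM mice, with an interaction of -1.7 ± 0.37 (SE), unadjusted p = 0.000824, edgeR adjusted p = 0.0702, and Dbp, an output factor of the clock, was at 52.5, 65.4 and 47.8 CPM in WT PBS mice, 144, 137 and 136 in WT BLM mice, 79.4, 215 and 181 in KO PBS mice and 84.8, 99.6 and 125 in KO BLM mice, with an interaction of -1.96 ± 0.43 (SE), unadjusted p = 0.000914, edgeR adjusted p = 0.0702. KO PBS mice 137 and 139 had the highest Nr1d1 and Dbp of all 12 mice. The hour of harvest was not given for the mice, and its part in these values was not tested. The medians with the hair covariate were -0.72 and -0.28.

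Nuclear-encoded subunits of oxidative phosphorylation had a median of 0.00, and the medians of the WT and KO changes were 0.35 and 0.33. At an unadjusted p under 0.05, 3 of 47 were above 0 (6.38%, beside 13.6% of all genes) and 5 below 0 (10.6%, beside 17.5%). The muscle isoform Cox6a2 (-2.32) and the common isoform Cox6a1 (0.93) lay on opposite sides. Hippo effectors and YAP targets had a median of 0.09, with 7 below (24.1%) and 2 above 0 of 29 at an unadjusted p under 0.05, and p53 targets one of 0.12, with 6 below (21.4%) and 2 above 0 of 28 at that p, beside 17.5% of all genes below 0. Both medians turned with the hair covariate, to -0.13 and -0.18. Among p53 targets, Eda2r, a death receptor, was at 4.6, 4.24 and 3.92 CPM in WT PBS mice, 34.9, 33.8 and 20.6 in WT BLM mice, 3.56, 9.2 and 8.64 in KO PBS mice and 12.5, 11.9 and 14.9 in KO BLM mice, with an interaction of -1.93 ± 0.46 (SE), unadjusted p = 0.00157, edgeR adjusted p = 0.0702, and Ccng1, an early response gene of DNA damage, was at 68.5, 68.1 and 75.8 CPM in WT PBS mice, 253, 347 and 144 in WT BLM mice, 79, 232 and 205 in KO PBS mice and 158, 114 and 127 in KO BLM mice, with an interaction of -2.18 ± 0.54 (SE), unadjusted p = 0.00227, edgeR adjusted p = 0.0702. Of 40 apoptosis genes, 30 lay below 0 and 10 (25%, beside 17.5% of all genes) were below 0 at an unadjusted p under 0.05. Their median of -0.42 became 0.08 with the hair covariate. Fas, the receptor of Fasl, was at 3.62, 4.44 and 4.31 CPM in WT PBS mice, 10.7, 11.4 and 11 in WT BLM mice, 4.99, 11.3 and 9.5 in KO PBS mice and 8.02, 10.5 and 8.94 in KO BLM mice (interaction -1.33 ± 0.37 (SE), unadjusted p = 0.00448, edgeR adjusted p = 0.0751). Of 17 Schwann cell and nerve genes, 14 lay below 0 and 5 (29.4%, beside 17.5% of all genes) were below 0 at an unadjusted p under 0.05. Their median was -0.94, and -0.32 with the hair covariate. The erythrocyte list had 1 of 7 above 0 at an unadjusted p under 0.05 (14.3%, near the 13.6% of all genes), Slc4a1, an anion exchanger. Its hemoglobin genes, near-identical pairs that may share reads, were between -0.03 and 0.21.

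Of 44 cornified envelope genes, which build the outer barrier of the epidermis, 23 rose in WT (beside 19.8% of all genes) and 2 in KO mice (beside 0.306% passing). They had median changes of 2.24 in WT and 2.44 in KO mice and a median interaction of -0.13, or -0.26 with the 7 genes at the floor in a group set to 3 counts. At an unadjusted p under 0.05, 3 of 44 were above 0 (6.82%, beside 13.6% of all genes). With the hair covariate the median was 2.09. In that fit 19 of 44 were above 0 at an unadjusted p under 0.05, beside 641 of 18311 genes tested. Casp14, the protease of terminal keratinocytes, was at 313, 291 and 344 CPM in WT PBS mice, 258, 193 and 505 in WT BLM mice, 116, 117 and 91.6 in KO PBS mice and 392, 738 and 919 in KO BLM mice. It rose in KO mice by 2.66 (edgeR adjusted p = 0.0341) with a WT change of 0.01 (edgeR adjusted p = 0.981), and its interaction was 2.65 ± 0.52 (SE), unadjusted p = 0.000421, edgeR adjusted p = 0.0702. Flg, filaggrin, rose in both genotypes, by 1.71 in WT and 3.34 in KO mice, at 183, 149.9 and 176 CPM in WT PBS mice, 457, 361 and 844 in WT BLM mice, 64.9, 128 and 93.3 in KO PBS mice and 298, 1127 and 1463 in KO BLM mice (interaction 1.63 ± 0.72 (SE), unadjusted p = 0.0459, edgeR adjusted p = 0.154). Keratins of the basal layer and of stress had a median of 0.10, and Krt75, of the follicle, was the highest at 4.76. At an unadjusted p under 0.05, 5 of 19 were above 0 (26.3%, beside 13.6% of all genes) and 1 below 0 (5.26%, beside 17.5%). Sebaceous gland genes had a median of 0.28 with 15 of 23 above 0. Of the 23, 3 above 0 (13%, near the 13.6% of all genes), Elovl3, Mc5r and Hsd3b6, had an unadjusted p under 0.05. Medians with the hair covariate were 0.30 for keratins and 1.21 for sebaceous genes. Of the sebaceous genes, 11 of 23 were then above 0 at an unadjusted p under 0.05, beside the same 641 of 18311.

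Of genes averaging at least 1 on the log2 CPM scale, those with the smallest p were, above 0, Acot1, Nrxn2, Mt1, Mt2, Elovl3, Alad, Hoxb8 and Scube3. Acot1, an enzyme that releases fatty acids from coenzyme A (chr12:84009490-84018371), was at 56.8, 62.5 and 59.8 CPM in WT PBS mice, 15.7, 18 and 17.9 in WT BLM mice, 68.4, 52.7 and 72.1 in KO PBS mice and 52.4, 45.1 and 47.8 in KO BLM mice. The WT BLM mice were below every other mouse, and mouse 136 lay between KO PBS mice 137 and 139. It fell in WT mice by 1.80 on the log2 scale (edgeR adjusted p = 0.00113), its KO change was -0.41 (edgeR adjusted p = 0.155), its level under bleomycin was 1.49 higher in KO than in WT mice (edgeR adjusted p = 0.00128), and the interaction was 1.38 ± 0.18 (SE), unadjusted p = 1.55e-05, edgeR adjusted p = 0.0697. It was 1.05 with the hair covariate. Acot1 lies beside near-identical Acot genes, so reads may be shared with them. Elovl3, which lengthens fatty acids in sebaceous glands and follicles (chr19:46131897-46135694), was at 72, 58 and 63 CPM in WT PBS mice, 8.3, 17.7 and 20.4 in WT BLM mice, 44.3, 27.2 and 41.7 in KO PBS mice and 68.9, 80.3 and 55.4 in KO BLM mice, with WT BLM again lowest, a KO minus WT difference under bleomycin of 2.14 (edgeR adjusted p = 0.0421) and an interaction of 2.91 ± 0.43 (SE), unadjusted p = 4.26e-05, edgeR adjusted p = 0.0702. Alad, the second enzyme of heme synthesis (chr4:62509169-62519918), was at 53.6, 50.2 and 51.9 CPM in WT PBS mice, 25.3, 24.2 and 24.6 in WT BLM mice, 47.8, 43.5 and 43.5 in KO PBS mice and 46.8, 42.6 and 36.7 in KO BLM mice, and its interaction was 0.97 ± 0.15 (SE), unadjusted p = 5.85e-05, edgeR adjusted p = 0.0702. Hoxb8, a homeobox gene of body position, was at 24.7, 27.5 and 28.7 CPM in WT PBS mice, 6.89, 6.2 and 10.7 in WT BLM mice, 20.04, 12.7 and 15.3 in KO PBS mice and 21.1, 19.7 and 17.2 in KO BLM mice, and Nrxn2, a synaptic adhesion protein, at 12.8, 10.03 and 13.2 CPM in WT PBS mice, 0.548, 1.4 and 0.787 in WT BLM mice, 5.62, 2.91 and 2.74 in KO PBS mice and 11, 4.68 and 5.51 in KO BLM mice, with interactions of 2.04 ± 0.32 (SE) and 4.61 ± 0.62 (SE).

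Mt1 (chr8:94179082-94180327) and Mt2 (chr8:94172664-94173568), neighbouring genes for the metallothioneins that bind zinc and copper, crossed over between genotypes. Mt1 was at 187, 136 and 171 CPM in WT PBS mice, 104, 69.2 and 87.4 in WT BLM mice, 81.8, 90.9 and 62.8 in KO PBS mice and 159, 148 and 171 in KO BLM mice. PBS was above BLM in WT mice and below it in KO mice, without overlap in either, and mouse 136 was as low as the other KO PBS mice. Mt1 fell in WT mice by 0.93 on the log2 scale (edgeR adjusted p = 0.00828), its KO change was 1.02 (edgeR adjusted p = 0.0541), and the interaction was 1.95 ± 0.27 (SE), unadjusted p = 1.9e-05, edgeR adjusted p = 0.0697. Mt2 was at 316, 214 and 284 CPM in WT PBS mice, 129, 71.9 and 91.3 in WT BLM mice, 131, 90.5 and 68.4 in KO PBS mice and 235, 193 and 209.7 in KO BLM mice, in the same order, with an interaction of 2.61 ± 0.39 (SE), unadjusted p = 3.91e-05, edgeR adjusted p = 0.0702. With the hair covariate the values were 2.12 and 2.17, and over the 12 fits without 1 mouse they ran from 1.81 to 2.11 and from 2.41 to 2.9. Both promoters are shown, with each TGCNCNC on either strand in capitals. These letters are a looser form of the core of the element bound by the metal sensor MTF1. That core has A or G after TGC, so the Mt2 stretches GGGAGCA and TGCTCTC do not match it. The searched pattern is short and 62.8% of all promoters held it at least 1 time and 11.3% at least 3 times, while Mt1 (chr8:94178839-94179138, plus strand) held it 3 times and Mt2 (chr8:94172368-94172667, plus strand) 6 times.
Mt1: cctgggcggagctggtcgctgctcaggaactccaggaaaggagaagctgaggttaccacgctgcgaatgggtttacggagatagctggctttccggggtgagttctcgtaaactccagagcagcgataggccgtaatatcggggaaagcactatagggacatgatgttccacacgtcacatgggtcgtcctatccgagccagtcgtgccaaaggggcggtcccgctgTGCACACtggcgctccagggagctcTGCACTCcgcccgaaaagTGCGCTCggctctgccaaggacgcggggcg
Mt2: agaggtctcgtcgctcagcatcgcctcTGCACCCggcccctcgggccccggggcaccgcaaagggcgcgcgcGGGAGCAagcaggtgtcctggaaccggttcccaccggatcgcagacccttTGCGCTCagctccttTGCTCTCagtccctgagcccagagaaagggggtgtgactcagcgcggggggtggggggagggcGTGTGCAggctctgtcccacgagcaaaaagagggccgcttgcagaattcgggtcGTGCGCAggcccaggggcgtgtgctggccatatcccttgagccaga

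Below 0, the smallest p belonged to Rai2, Zfp697, Herc3, Gpcpd1, Fgf1, Pik3ip1 and Samd4. Zfp697, a zinc finger protein, was at 1.18, 1.48 and 1.48 CPM in WT PBS mice, 5.91, 5.51 and 4.99 in WT BLM mice, 2.33, 1.77 and 1.94 in KO PBS mice and 2.02, 1.8 and 2.65 in KO BLM mice. The WT BLM mice stood above every other mouse, and the interaction was -1.88 ± 0.31 (SE), unadjusted p = 9.88e-05, edgeR adjusted p = 0.0702. Samd4, an RNA-binding repressor of translation, followed the same order at 13.4, 14.3 and 16.4 CPM in WT PBS mice, 50.7, 47.2 and 38.8 in WT BLM mice, 15.3, 21.2 and 23.4 in KO PBS mice and 22.1, 19.9 and 25.4 in KO BLM mice, with an interaction of -1.46 ± 0.25 (SE). Gpcpd1, a phosphodiesterase of choline metabolism, was at 45.3, 48.6 and 50.3 CPM in WT PBS mice, 82, 81.8 and 65.8 in WT BLM mice, 64.5, 67.5 and 67.7 in KO PBS mice and 56.6, 54.3 and 59.5 in KO BLM mice, higher with bleomycin in WT and lower in KO mice without overlap, with an interaction of -0.90 ± 0.15 (SE), unadjusted p = 0.000113, edgeR adjusted p = 0.0702. Fgf1, a growth factor, was at 12.2, 11.5 and 11.9 CPM in WT PBS mice, 21.7, 25.7 and 18.1 in WT BLM mice, 17.1, 31.3 and 21.9 in KO PBS mice and 13.2, 13.1 and 12 in KO BLM mice, and Herc3, a ubiquitin ligase, at 10.6, 12.4 and 11.5 CPM in WT PBS mice, 23.1, 20.4 and 18.2 in WT BLM mice, 18.4, 18.1 and 15.4 in KO PBS mice and 13.3, 14.2 and 14.7 in KO BLM mice, both crossing over as Gpcpd1 did, with interactions of -1.76 ± 0.29 (SE) and -1.14 ± 0.19 (SE). Pik3ip1, an inhibitor of PI3 kinase, was at 23.1, 28.6 and 22.7 CPM in WT PBS mice, 50.7, 46.6 and 40.5 in WT BLM mice, 40.2, 50.2 and 63.7 in KO PBS mice and 33.9, 34.7 and 37.5 in KO BLM mice with an interaction of -1.43 ± 0.24 (SE). All 15 of these genes had an unadjusted p under 0.05 in each of the 12 fits that left out 1 mouse, as did 1341 genes above 0 and 1798 below 0 over the whole table. The 15 were chosen by small p in the same mice, so their passing is not independent evidence.

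Genes whose BLM mice lay on opposite sides of the PBS mice, without overlap in either genotype, numbered 237 for lower in WT and higher in KO mice (1.29% of genes tested) and 111 for higher in WT and lower in KO mice (0.606%), beside 921 that were higher with bleomycin in both and 316 lower in both. Among the largest differences, Scube3, a secreted protein of growing follicles, was at 44.8, 39.4 and 55.2 CPM in WT PBS mice, 2.58, 10.9 and 4.69 in WT BLM mice, 13.8, 11.6 and 8.55 in KO PBS mice and 29.2, 23 and 15.6 in KO BLM mice, with an interaction of 3.94 ± 0.63 (SE), unadjusted p = 8.11e-05, edgeR adjusted p = 0.0702. Etv4, a transcription factor downstream of FGF signals, was at 62.7, 44.2 and 47.5 CPM in WT PBS mice, 9.47, 15.3 and 14 in WT BLM mice, 25.3, 16.5 and 7.39 in KO PBS mice and 42.4, 28.1 and 26.9 in KO BLM mice. Atp6v0d2, a proton pump subunit of osteoclasts and macrophages, was at 10.2, 10.1 and 14 CPM in WT PBS mice, 3.88, 7.53 and 7.68 in WT BLM mice, 4.16, 2.0 and 1.31 in KO PBS mice and 8.17, 20.3 and 15.5 in KO BLM mice. Serpina9, a protease inhibitor of B cells, was at 19, 19.3 and 20.1 CPM in WT PBS mice, 3.92, 4.3 and 15.2 in WT BLM mice, 12.3, 1.14 and 1.01 in KO PBS mice and 21.5, 19.9 and 33.2 in KO BLM mice, and its KO PBS mouse 136 was higher than the other 2 KO PBS mice. In the other direction, Ifitm6, an interferon-induced membrane protein of myeloid cells, was at 2.0, 2.27 and 2.32 CPM in WT PBS mice, 4.74, 3.36 and 3.15 in WT BLM mice, 5.98, 13.1 and 16.5 in KO PBS mice and 3.61, 1.33 and 2.12 in KO BLM mice, with the highest levels in KO PBS mice and an interaction of -3.1 ± 0.59 (SE), unadjusted p = 0.000318, edgeR adjusted p = 0.0702. Per3, a clock gene, was at 41.4, 54.2 and 35.6 CPM in WT PBS mice, 116, 98.7 and 81.6 in WT BLM mice, 60.8, 127 and 95.5 in KO PBS mice and 57.7, 60.8 and 56.7 in KO BLM mice, Rai2 at 3.31, 4.38 and 4.97 CPM in WT PBS mice, 11.3, 10.4 and 8.47 in WT BLM mice, 6.35, 8.69 and 10.1 in KO PBS mice and 4.93, 5.71 and 4.88 in KO BLM mice, and Tll1, a protease that processes procollagen, at 1.79, 2.07 and 1.96 CPM in WT PBS mice, 2.7, 6.65 and 5.05 in WT BLM mice, 3.66, 5.94 and 7.0 in KO PBS mice and 2.94, 2.64 and 3.61 in KO BLM mice. Ppp1r9a, an actin-binding partner of protein phosphatase 1, was at 2.47, 3.98 and 2.67 CPM in WT PBS mice, 7.13, 9.62 and 4.79 in WT BLM mice, 3.56, 7.2 and 6.94 in KO PBS mice and 3.34, 2.76 and 2.33 in KO BLM mice. For these genes the interactions ran from -3.1 to 3.94, with edgeR adjusted p of 0.0702 to 0.0952.

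Each interaction is also the KO minus WT difference under bleomycin less that under PBS, so the lists were split in this way. The interferon list was higher in KO than in WT mice under PBS by a median of 1.16 and lower under bleomycin by a median of -0.59. The same pair was 1.65 and -1.05 for skeletal muscle, 1.07 and -0.49 for MHC class II, 0.65 and -0.47 for collagens and -1.09 and 0.72 for proliferation. The PBS part was the larger for each of these lists. It was the smaller for myofibroblast genes, at 0.41 and -0.68, and for cholesterol synthesis, at -0.34 and 0.67. For the study's own genes the parts were close, at 0.78 and -0.83. Over these genes KO PBS mouse 136 had a mean log2 CPM of 3.18, beside 5.1 in mouse 137 and 4.43 in mouse 139. The split of single lists is not given without mouse 136, so the order of the parts may rest on that mouse. Over all genes the median absolute difference was 0.33 under PBS and 0.30 under bleomycin, and 0.52 and 0.30 without mouse 136. With all 12 mice, 12 single genes passed the test under PBS and 17 under bleomycin.

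**Figure D5:**
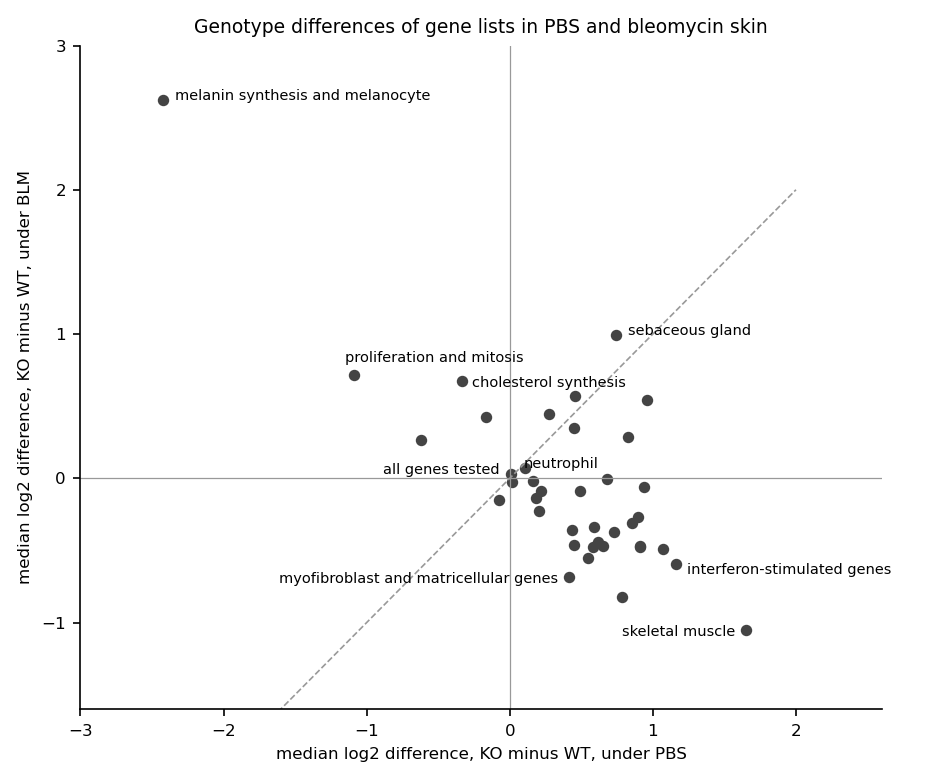
Median log2 difference between KO and WT mice under PBS (x axis) and under bleomycin (y axis) for 38 gene lists and all genes tested, 1 point each, with the growing hair list left out for scale (-1.31 under PBS and 5.82 under bleomycin). A list on the dashed line has the same difference in both treatments, and most immune, matrix and muscle lists lie to the right of 0 and below it.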

How the data were processed

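Whole back skin of 12 mice, 3 per group, was sequenced as stranded mRNA libraries with read pairs. The authors deposited 1 table of counts per gene, whole numbers that were not normalized. Their processing notes name GRCm38.p6 and MultiQC 1.7, and the aligner and counter are not given in the sources used here. The counts were fitted with edgeR 4.0.16 in R 4.3.3 (TMM, filterByExpr, quasi-likelihood test, means of 4 groups, Benjamini-Hochberg adjustment over 18311 genes). The common dispersion was 0.122. DESeq2 1.42.0, limma-voom 3.58.1 with weights for each mouse, other normalizations and filters, each mouse left out and the hair list as a covariate were alternatives. The fit was tested on simulated data. Gene positions are from GENCODE M21 and promoters from RefSeq.

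The gene lists, members and rules were chosen with earlier results of these data known. Named genes were Thy1 and the genes the study followed, and, among genes with a symbol and a mean of at least 1 log2 CPM, the 8 with the smallest p on each side, the 5 on each side with the smallest worst p over the 12 fits without 1 mouse, and the 5 on each side with the largest interaction of those moving oppositely without overlap. They were joined by the 3 smallest p of each list, or its most abundant member where none was under 0.05. Some genes that meet these rules are not reported here.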

Additional observations from a re-analysis of the deposited data

Results flagged for a closer look

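The bleomycin effects of WT and KO mice lay on opposite sides without overlap in either genotype for 10 genes chosen by the size of this difference, and the test of the difference itself is the interaction. Its log2 values were 3.4 for Atp6v0d2, 5.4 for Shh, 2.98 for Etv4, 3.69 for Serpina9 and 3.94 for Scube3. On the other side they were -1.87 for Per3, -2.31 for Ppp1r9a, -3.1 for Ifitm6, -2.16 for Tll1 and -1.95 for Rai2. All 10 missed an adjusted p of 0.05 in edgeR with all 12 mice. Scube3, Etv4 and Shh were high in WT PBS mice, as hair genes were. Serpina9 was higher in WT PBS than in WT BLM mice and higher in mouse 136 than in mice 137 and 139, as hair genes were. With the hair covariate the edgeR interactions were 3.41 for Shh (unadjusted p = 0.0274) and 2.02 for Etv4 (unadjusted p = 0.0132). For Serpina9 the value was 1.53 (unadjusted p = 0.27). The part of the hair cycle in these 4 genes was not tested.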

How the results depend on the processing

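The number of interactions called in edgeR was 0, and it was 3279 in DESeq2, 8639 in limma-voom with weights, 20 with no filter, 7218 without mice 136 and 141, and 8176 in DESeq2 without mouse 136, a setting chosen after seeing the data. Leaving out 1 mouse gave 0 to 7470, the latter without mouse 136. The WT response (6222 genes) ranged from 2615 to 8565 without 1 mouse and reached 9272 in limma-voom, was lower by over 1.5 times without WT PBS mouse 159 (2626), 160 (2615) or 161 (3388) or WT BLM mouse 145 (4027), 146 (3706) or 147 (3299), and was 8 with the hair covariate. The KO response (56) was 1212 in DESeq2, 7456 in limma-voom, 34 with upper-quartile normalization, 176 with no filter, 4164 without both mice, 1693 with the hair covariate, 4211 in DESeq2 without mouse 136 and 0 to 2632 without 1 mouse. Under PBS (12) the count was 755, 10473, 7648 and 7651 in DESeq2, limma-voom, without both mice and in DESeq2 without mouse 136, and 6 to 6870 without 1 mouse. Under bleomycin (17) it was 614, 865, 815 and 3021 in the same order, and 5 to 1292 without 1 mouse. The causes were not tested.

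With the hair covariate, interactions changed sign for Fcgr4 (1.83), Csf1 (0.36), Ifi44 (0.24), Csf3r (0.28), Hpgds (0.47), Clec4e (1.43), Cox6a2 (0.16), Thy1 (0.12), Mmp19 (0.20), Ccl7 (0.78), Mmp28 (0.56), Col1a1 (0.63), Tgfbi (0.15), H2-DMb1 (0.053), Cd14 (0.038), Csf1r (0.068), Il33 (0.47), Acta2 (0.044) and Tlr13 (0.60). Trbc2 was -0.17 in limma-voom, -0.18 in DESeq2 without mouse 136, -0.20 to 0.37 without 1 mouse and 1.59 with the hair covariate. Of 2792 values of single genes under alternatives, 2177 kept their direction and side of the threshold, 590 kept their direction and passed it, and 25 turned. No paired analysis was possible because every mouse had a number of its own. Mice of a group varied with a biological coefficient of variation of 34.9%, and genes at 3 counts or fewer in every mouse of a group have no usable fold and were left out of these values.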
